A study of Mus musculus with 6 samples.

Results

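Macrophages labelled as given siRNA against Phf2 were set against macrophages labelled as given control siRNA, both after KLA, which is 1 library against 1 and 2 of the 6 libraries of the series. All 6 libraries were made from macrophages that thioglycollate had drawn into the peritoneum of female C57BL/6 mice, which were cultured with siRNA (siCtl, siSmyd5 or siPhf2) for 48 hours and then given KLA at 100 ng per ml, or vehicle, for 4 hours. The labels give KLA as LPS (Kdo2-LipidA), the lipid A part of a bacterial endotoxin. Poly(A) RNA was sequenced, with 1 library for each siRNA and agent. The sources used here do not give the age or number of the animals, pooling, or the siRNA sequences.

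The siCtl and siPhf2 names may be exchanged. The values of each of these columns resolve into whole reads only with the library total printed for the other, so either the names or the totals were exchanged in the table. Libraries are therefore called by their labels, and every ratio below is the siPhf2-labelled library over the siCtl-labelled one. If the names were swapped, each ratio turns into its inverse: 8.52 for the antiviral gene Rsad2 would read 0.117. With 1 library a group there is no replicate spread and no p-value, and each interval given after a ratio is an exact 95% Poisson interval that covers counting error only.

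PHF2 is a Jumonji-family demethylase of histone lysines. The series title concerns trimethylation of histone H4 lysine 20 and its removal at pro-inflammatory genes, so the comparison asks what KLA-treated macrophages express with Phf2 targeted. KLA acts on the receptor TLR4. One branch of the signal, through MyD88, activates NF-kB and the early cytokines. The other, through TRIF, activates IRF3 and interferon beta, and secreted interferon then acts back on the cells through factors that include STAT2 and IRF9 and bind the interferon-stimulated response element (ISRE) in front of antiviral genes.

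The siPhf2-labelled KLA library was far shallower than its control. The ribosomal RNA precursor Rn45s took 301005 of its 420141 reads (71.6%), against 10344 of 1429520 (0.724%) in the siCtl-labelled KLA library, and the other libraries held 66.7% (siPhf2-labelled vehicle) or 0.621% to 1.20%. Without Rn45s 119136 and 1419176 reads were left, and noncoding RNAs made up 10.2% and 2.84% of them. Levels are given as reads per 1000000 (RPM) after scaling with edgeR's TMM factors without Rn45s, on which 1 read of the siPhf2-labelled library weighs as much as 16.3 control reads. Median reads per gene were 4 and 74. Whether this RNA composition plays a part in the ratios below was not tested, and no value can be given without the siPhf2-labelled library, which is 1 side of every ratio.

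A gene was called higher or lower when its log2 ratio was at least 1 in that direction and the interval of its ratio excluded 1. For the log2 ratio, reads were added to each library in proportion to its scaled size, 2 on average over the pair. Of 7994 genes that averaged 10 reads or more over the 6 libraries, 626 (7.83%) were called higher and 581 (7.27%) lower under KLA, 15.1% together. Counts of calls in the lists below are to be read beside the 7.83% and 7.27% of all genes. The median log2 ratio of all genes was -0.34, so list medians are also given relative to it. That median rose with the number of control reads, from -0.57 below 62 to 0.47 from 1000 up. The split depended on scaling: 51.9% of the calls were higher with TMM, 65.9% with DESeq2 size factors, 25.7% with the protein-coding total, 18.9% with the total without Rn45s and 0.473% with the total that includes Rn45s. Centring for transcript length, GC content or both gave 73.9%, 80.8% and 80.9%. The 4 other scalings moved the median of all genes by 0.14, -0.31, -0.42 and -1.96 from the TMM value.

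Antiviral genes had the most higher calls of the lists, and 16 of 30 of their promoters (53.3%) held a match to the ISRE. The stretches that follow are from RefSeq on GRCm38.p6, on the strand of the gene, with the bases of each ISRE match in capitals. A match was GAAA, any 2 bases and GAAA again, or the same on the opposite strand (TTTC, any 2 bases, TTTC), within 250 bases before and 50 after the start site. Matches may overlap. The first 6 genes were called higher under KLA, and Bst2 was not called.
Rsad2: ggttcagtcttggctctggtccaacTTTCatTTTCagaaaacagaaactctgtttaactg
Gbp7: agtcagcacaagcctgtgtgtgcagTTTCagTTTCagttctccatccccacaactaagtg
Gbp5: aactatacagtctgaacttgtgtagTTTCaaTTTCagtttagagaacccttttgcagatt
Gbp3: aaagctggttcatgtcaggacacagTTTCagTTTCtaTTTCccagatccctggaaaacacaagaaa
Ifit1: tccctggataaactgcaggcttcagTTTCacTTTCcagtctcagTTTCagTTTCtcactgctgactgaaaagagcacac
Isg15: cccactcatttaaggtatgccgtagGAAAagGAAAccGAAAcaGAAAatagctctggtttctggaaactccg
Bst2: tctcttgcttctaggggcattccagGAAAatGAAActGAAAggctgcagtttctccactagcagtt

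These stretches lie at chr12:26456538-26456597 (Rsad2), chr3:142530258-142530317 (Gbp7), chr3:142496744-142496803 (Gbp5), chr3:142559974-142560039 (Gbp3), chr19:34640760-34640838 (Ifit1), chr4:156200850-156200921 (Isg15) and chr8:71537562-71537627 (Bst2). The first match began 120 bases upstream of the start site in Rsad2, 53 in Gbp7, 165 in Gbp5, 45 in Gbp3, 104 in Ifit1, 78 in Isg15 and 130 in Bst2. Isg15 held 3 overlapping matches, and Gbp3, Ifit1 and Bst2 held 2 each. An ISRE was found in 48 of the 446 called-higher genes with a promoter in the table (10.8%), in 9 of 408 called-lower genes (2.21%), in 229 of all 5865 tested genes with one (3.90%) and in 1079 of all 27025 promoters of that length (3.99%). Within the antiviral and GTPase lists described next, 16 of 27 called-higher genes (59.3%) and 7 of 10 uncalled genes (70.0%) held it. A match of letters is a description and not a binding site.

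Phf2 itself (NM_011078, chr13:48897119-48966254, coordinates of the deposited table, mm9) had 8 reads in the siPhf2-labelled KLA library and 120 in its control, a ratio of 1.08 (0.457 to 2.20). In the other libraries it had 113 (siCtl vehicle), 52 (siSmyd5 vehicle), 34 (siSmyd5 KLA) and 29 (siPhf2 vehicle) reads. These are reads before scaling, in libraries with scaled sizes of 1636093, 1016517, 945593 and 164568 in that order. Relative to scaled size, Phf2 under vehicle stood above control in the siPhf2-labelled library. Under KLA it stood below control in the siSmyd5-labelled library, where the control has a scaled size of 1513962. The target was thus not called lower under its own label, and no direction here is drawn from a knockdown of Phf2. Smyd5, the H4 lysine 20 methyltransferase targeted in the other arm, had 0 reads against 29, which this depth cannot tell from no difference (upper limit 2.20).

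Of 9 measured H4 lysine 20 enzymes and PHF2 relatives, 0 were called in either direction, with a median log2 ratio of -0.22 (0.11 when a gene without reads takes its bound from the floor of 3 reads). Among them were Arid5b, a partner of PHF2, with 15 reads against 140, Setd8, the monomethylase, with 8 against 239, and Jhdm1d, a related demethylase, with 6 against 114. The next list held the NCoR and SMRT corepressor complex, which holds inflammatory promoters silent, and other corepressor genes (Rcor1, Kdm1a, Hdac1, Hdac2 and Nrip1). In it 1 of 11 was higher and 1 lower. Coro2a, an actin-linked subunit, had 24 reads against 110 (3.55, 2.18 to 5.55). Ncor1, the scaffold, had 35 against 441 (1.29, 0.887 to 1.82). Hdac2, a deacetylase among those other corepressor genes, had 0 against 119, at least 2.44-fold lower by a floor of 3 reads. That call ended with the length and GC correction described further on. Each fold given as at least uses this floor of 3 reads and not the interval, whose limit lies nearer to 1. For 0 reads against 78, the floor gives a ratio of 0.625 and the interval an upper limit of 0.787.

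The antiviral effectors, the products of interferon-stimulated genes, were the list with the most higher calls: 30 of 40 were higher and 0 lower, with a median log2 ratio of 1.63, which is 1.96 above that of all genes. Cmpk2, a nucleotide kinase, had 392 reads against 627 in the control, a level of 4207 against 414 RPM (10.2, 8.93 to 11.5). Its neighbour Rsad2 (NM_021384, chr12:27127608-27141317), which encodes viperin, had 976 reads against 1861, or 10480 against 1229 RPM (8.52, 7.88 to 9.21). Both levels were the highest of the 6 libraries, followed by the siSmyd5-labelled KLA library with 697 RPM of Cmpk2 and 1886 of Rsad2. Pml, the organiser of nuclear bodies, had 53 reads against 90 (9.57, 6.68 to 13.6). The antiviral GTPase Mx1 had 273 against 623 (7.12, 6.15 to 8.22). Oas2, which makes the signal for RNase L, had 57 against 148 (6.26, 4.53 to 8.55).

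Other antiviral genes with many reads differed less. Ifit1, which binds foreign RNA ends, had 208 reads against 1360 (2.49, 2.14 to 2.88). The ubiquitin-like modifier Isg15 had 152 against 1079 (2.29, 1.92 to 2.71), and Parp14, an ADP-ribosyltransferase, 568 against 1912 (4.83, 4.39 to 5.30). Slfn2, a schlafen family member, had 167 against 2492 and was level with control (1.09, 0.925 to 1.27). The lowest ratio of the list was that of Rtp4, with 23 reads against 420 (0.89, 0.558 to 1.35). With scaling to the total without Rn45s 23 of 40 were called higher, with the protein-coding total 25 and with DESeq2 size factors 32 (Ifit1 and Isg15 were not called with either total). Scaled to the total with Rn45s, which lowered most genes, 1 was called higher and 13 lower, and the list median was -0.59 against -2.30 for all genes.

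**Figure D1:**
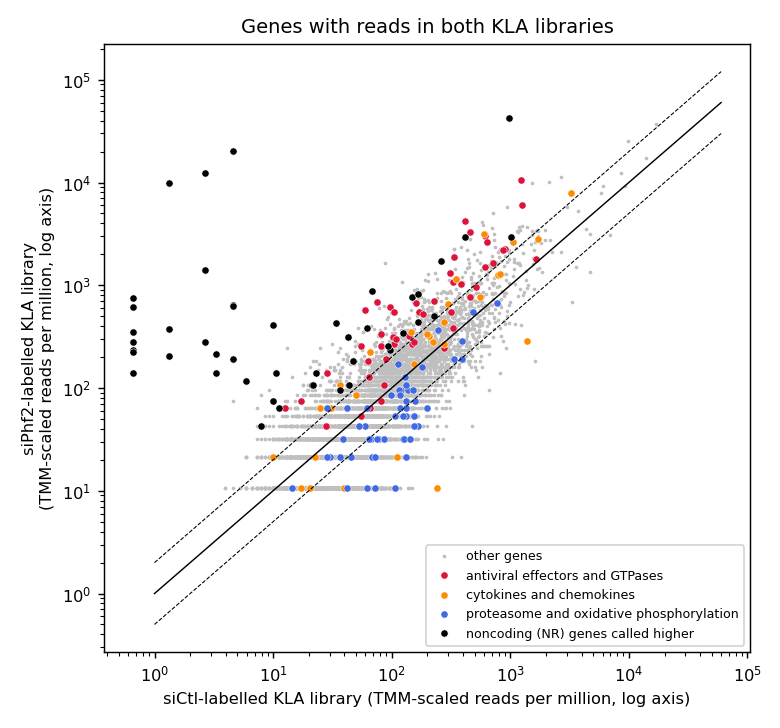
Each point is a gene with reads in both KLA libraries, placed by its TMM-scaled RPM in the siCtl-labelled (x) and the siPhf2-labelled (y) library on log axes; the solid line marks equal levels and the dashed lines a factor of 2. Antiviral effectors and GTPases (red) lie mostly above the upper dashed line, proteasome and oxidative phosphorylation genes (blue) mostly below equality, and noncoding genes called higher (black) far up on the left; the horizontal rows at the bottom are genes with 1, 2 or 3 reads in the siPhf2-labelled library.

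The GTPases that attack vacuoles of pathogens followed the antiviral genes: 7 of 11 guanylate-binding proteins and immunity-related GTPases were higher and 0 lower, with a median of 1.44. Gbp7 had 64 reads against 114 (9.12, 6.61 to 12.5) and Gbp5, a promoter of inflammasome activity, 304 against 691 (7.15, 6.23 to 8.19). Gbp3 had 124 against 470 (4.29, 3.49 to 5.24) and Gbp2 96 against 577 (2.70, 2.16 to 3.36), a call that ended with the total without Rn45s. Members of these families are near-identical copies in part, as are Oas1a and Oas1g, the Mx, Ifit and Trim30 genes and the class I genes, so reads may be split between them.

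Among interferon regulatory factors and STATs 5 of 20 were higher and 0 lower (median 0.54). Stat2 and Irf9 encode proteins that act together at the ISRE. Stat2 had 105 reads against 291 (5.86, 4.64 to 7.35) and Irf9 25 against 142 (2.86, 1.79 to 4.40). Irf7, the amplifier of interferon alpha, had 51 against 536 (1.55, 1.14 to 2.06) and Irf1, induced by interferon gamma, 72 against 588 (1.99, 1.54 to 2.54), both short of the bound. The feedback inhibitor Socs3 was higher, with 41 reads against 285 (2.34, 1.64 to 3.25), but not with either total as the scaling.

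**Figure D2:**
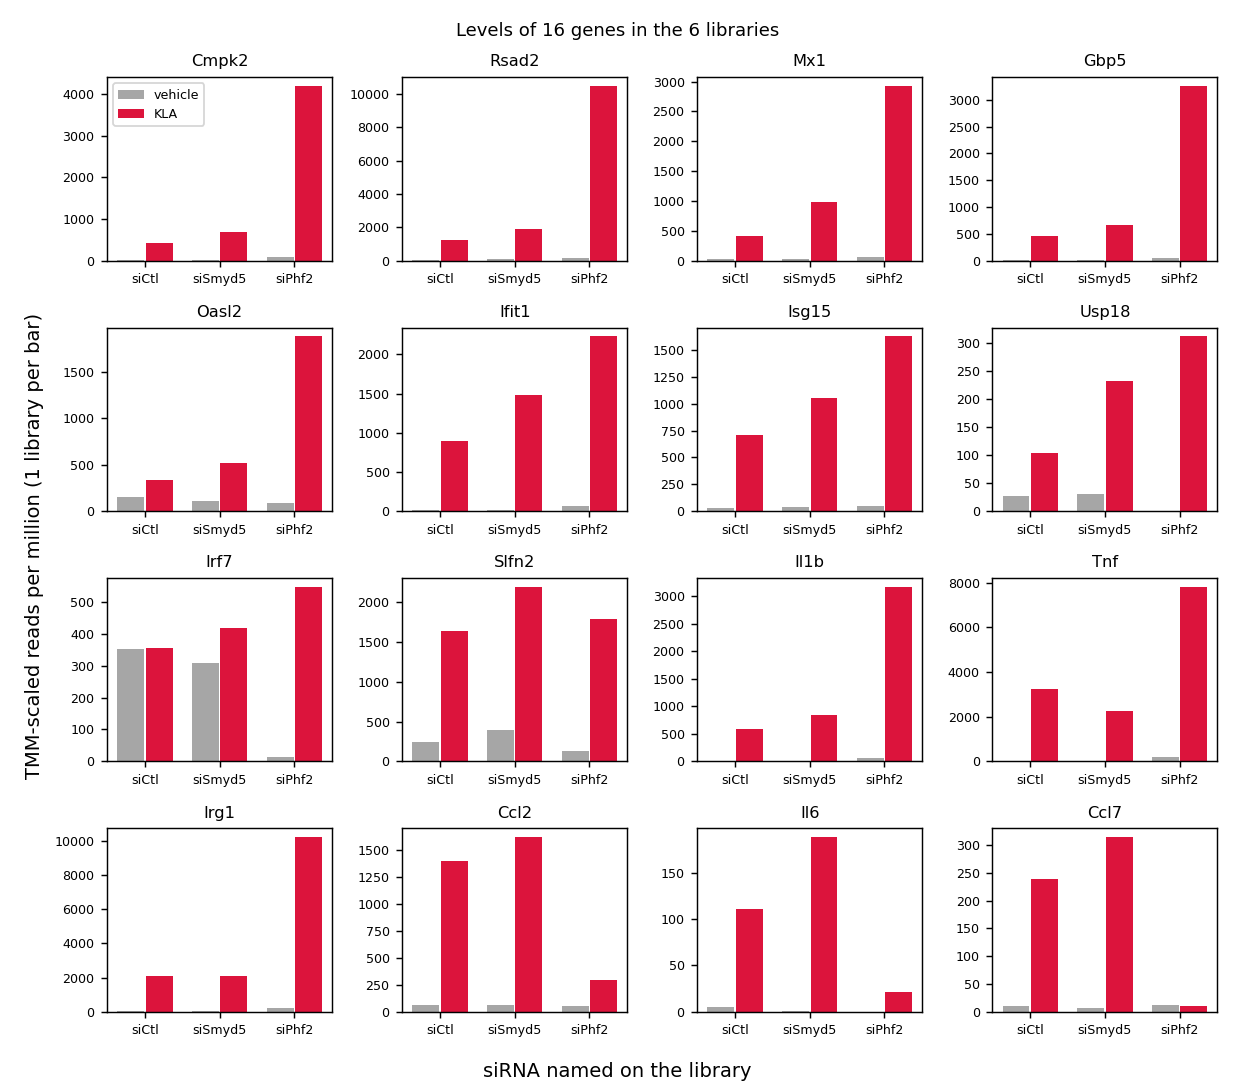
Bars give the TMM-scaled RPM of 16 genes, chosen with their values known, in each of the 6 libraries (grey vehicle, red KLA; 1 library per bar, so no error bars; each panel has its own axis from 0). In the siPhf2-labelled KLA library Cmpk2 and Rsad2 reach 4207 and 10480 against 414 and 1229 in the siCtl-labelled one, while Ccl2 stands at 290 against 1396 and Ccl7 at 10.7 against 239.

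In class I antigen presentation 7 of 22 genes were higher and 2 lower, with a median of 0.16. The class I transactivator Nlrc5 (NM_001033207, chr8:96996663-97051172) had the largest ratio of any protein-coding gene called here, with 155 reads against 132 (19.1, 15.0 to 24.3). The peptide transporter Tap1 had 85 reads against 249 (5.55, 4.28 to 7.12), its partner Tap2 46 against 142 (5.26, 3.69 to 7.39) and the loading factor Tapbp 168 against 664 (4.11, 3.45 to 4.88). Of the presenting molecules H2-M3 was higher, with 11 reads against 78 (2.29, 1.10 to 4.33), a call that ended with either total as the scaling. Others were not called: H2-D1 had 195 against 3411 (0.929, 0.800 to 1.07), H2-K1 75 against 1950 (0.625, 0.489 to 0.787) and their light chain B2m 197 against 4056 (0.789, 0.681 to 0.911). The loading chaperone Pdia3 was lower, with 15 against 874 (0.279, 0.155 to 0.463). With either total as the scaling 5 of the 22 were higher and 4 lower. Of 7 class II genes 0 were called, with a median of -0.77 (0.18 with genes at 0 reads at their bound).

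Inflammatory cytokines were mixed, with 5 of 20 higher and 2 lower (median 0.69; 0.73 with genes at 0 reads at their bound), against 2 and 2 with the total without Rn45s. Il1b (NM_008361, chr2:129190316-129196856), the pyrogen processed by the inflammasome, had 296 reads against 901, or 3177 against 595 RPM (5.34, 4.67 to 6.09). Tnf (NM_013693, chr17:35336336-35338941) had 729 against 4929 (2.40, 2.22 to 2.60), above the bound with TMM but not with the total without Rn45s or the protein-coding total. Il1a had 265 against 2617 (1.65, 1.44 to 1.87). In the other direction Il6 had 2 reads against 168 (0.193, 0.0232 to 0.710), and Il23a, a subunit of interleukin 23, had 0 against 83, at least 1.70-fold lower. Neither of the lower calls held after correction for transcript length.

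Chemokines went both ways as well, with 3 of 13 higher and 2 lower (median 0.62), against 1 and 3 with the total without Rn45s. Cxcl10, a T cell attractant that interferon induces, had 107 reads against 526, or 1148 against 347 RPM (interval of the ratio 2.66 to 4.08). Ccl3 had 248 against 1587 (2.54, 2.21 to 2.90) and Ccl5 61 against 448 (2.21, 1.66 to 2.90), while the neutrophil attractant Cxcl2, with 119 against 1246, stayed short of the bound (1.55, 1.27 to 1.87). The calls of Ccl3 and Ccl5 ended with the total without Rn45s. The monocyte attractants, neighbours on chromosome 11, were low: Ccl2 (NM_011333, chr11:81849079-81850954) had 27 reads against 2113 (0.208, 0.137 to 0.303). Ccl7 (NM_013654, chr11:81859214-81861025) had 1 read against 362 (0.0449, 0.00113 to 0.252). Both calls held in each of the 3 corrections for length and GC content.

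NF-kB genes leaned higher, with 6 of 22 called higher and 0 lower (median 0.70), and 5 and 1 under vehicle (median 0.65). The subunit Nfkb1 had 195 reads against 1197 (2.65, 2.26 to 3.08) and Nfkb2 111 against 707 (2.55, 2.07 to 3.12). The kinase Ikbke, which also acts in the TRIF branch, had 34 against 209 (2.64, 1.78 to 3.81). The feedback inhibitors Nfkbia, with 121 against 1328 (1.48, 1.22 to 1.78), and Tnfaip3, with 236 against 2260 (1.70, 1.48 to 1.94), were above control and short of the bound. Scaled to the total without Rn45s, 1 of these 22 was called higher and 1 lower, and the calls of Nfkb1, Nfkb2 and Ikbke ended.

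Of the receptors and adaptors upstream, 2 of 20 were higher and 2 lower (median 0.15), near the 7.83% and 7.27% of all genes. With either total 0 were higher and 2 lower. The adaptor Myd88 had 22 reads against 155 (2.31, 1.40 to 3.62), and Tlr2 257 against 2979 (1.40, 1.23 to 1.59). The sensor of bacterial ribosomal RNA Tlr13 was lower, with 17 against 844 (0.327, 0.190 to 0.527). The call of Myd88 ended with the total without Rn45s, and that of Tlr13 with GC corrected.

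Enzymes and transporters that endotoxin induces had 5 of 19 higher and 0 lower (median 0.56). Irg1, which makes itaconate, had 953 reads against 3205, or 10230 against 2117 RPM (4.83, 4.49 to 5.20). The arginine transporter Slc7a2 had 219 against 585 (6.08, 5.18 to 7.12) and the nitric oxide synthase Nos2 64 against 230 (4.52, 3.37 to 5.99). The prostaglandin synthase Ptgs2 was level, with 127 reads against 2061, or 1363 against 1361 RPM.

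Costimulatory and adhesion genes had 7 of 16 higher and 2 lower (median 0.46). Cd274, which encodes PD-L1, had 264 reads against 687 (6.24, 5.40 to 7.21) and the receptor Cd40 72 against 224 (5.22, 3.95 to 6.84), while the maturation marker Cd83 had 6 against 255 (0.382, 0.139 to 0.844). In the inflammasome list 3 of 13 were higher and 0 lower, with the sensor Nlrp3 at 205 against 1486 (2.24, 1.93 to 2.60). With the total without Rn45s 0 were higher and 2 lower, with the protein-coding total 1 and 2, and the Nlrp3 call ended with both. Of immediate early factors 4 of 18 were higher and 3 lower, against 0 and 4 with the total without Rn45s and 1 and 3 with the protein-coding total. Myc had 1 read against 150 (0.108, 0.00272 to 0.613). Of the factors that decay or stabilise cytokine mRNA 1 of 10 was higher, Zfp36 with 34 against 187 (2.95, 1.99 to 4.28), and 2 lower. In the Bcl2 and survival list 2 of 13 were higher and 0 lower, and among cell cycle genes 0 of 8 were called.

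KLA-induced genes can be taken from outside the comparison. In the siSmyd5-labelled arm 8.74% of genes were called higher with KLA and 3.5% lower, 12.2% together, and 252 genes (3.15% of all tested) had a log2 ratio of at least 2 for KLA over vehicle. Of these, 91 were higher and 10 lower in the siPhf2-labelled KLA library (36.1% and 3.97%), with a median of 0.71, 1.05 above that of all genes. Under vehicle, without KLA, 52 of the same 252 (20.6%, against 10.8% of all genes) were higher and 9 lower, with a median 0.47 above that of all genes. Leaving out the antiviral and GTPase lists, 63 of 215 were higher and 10 lower (29.3% and 4.65%; median 0.52, 0.86 above that of all genes), and under vehicle the median was 0.56 above. The 280 genes that KLA lowered in that arm had 13 higher and 14 lower calls (4.64% and 5.00%) and a median of -0.78.

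**Figure D3:**
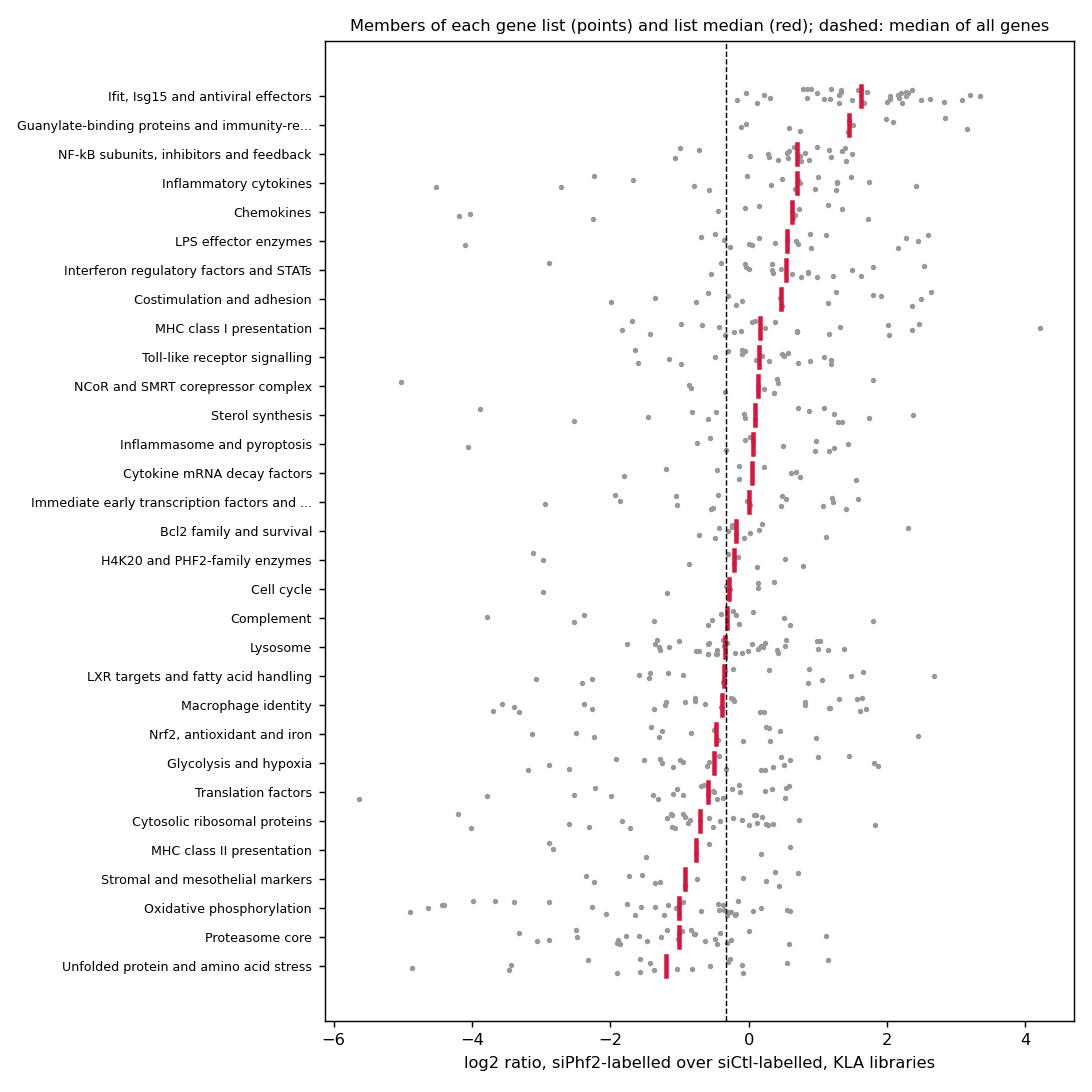
Each grey point is the log2 ratio (siPhf2-labelled over siCtl-labelled, KLA) of 1 measured gene in the list named on the left, for lists with at least 7 measured genes; red bars are list medians and the dashed line the median of all genes (-0.34). Antiviral effectors (1.63) and GTPases (1.44) lie at the top, and the proteasome (-1.01) and the unfolded protein list (-1.20) at the bottom.

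The 15 highest protein-coding genes with at least 20 reads held 6 of the antiviral, GTPase and class I lists. Others among the 15 were the lectin-like ligand Clec2d, with 23 reads against 20 (18.7, 9.81 to 35.9), the lipase Mgll, with 23 against 38 (9.83, 5.59 to 16.9), the transcriptional coregulator Tcf20, with 101 against 184 (8.92, 6.93 to 11.4) and the nuclear envelope protein Syne2, with 56 against 119 (7.65, 5.46 to 10.6). All 4 were called higher under vehicle as well, where 10.8% of genes were.

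Noncoding RNAs gave the highest ratios of the table. Of 19 listed small RNAs in the table that normally lack a poly(A) tail, 6 reached the minimum of reads, and they did so through the siPhf2-labelled libraries, so no count or median over them is given. The vault RNA Vaultrc5 had 1147 reads against 4 (4659, 1815 to 17130) and Rmrp, the RNA of RNase MRP, 132 against 4 (536, 205 to 1997). Mir5109 had 1871 against 7 and B230208H11Rik 913 against 2. The nuclear RNA Malat1, singled out after its values were seen, had 3968 against 1483 (43.5, 40.9 to 46.2). The siPhf2-labelled vehicle library held 2478 reads of Vaultrc5 and 2470 of Mir5109, while the 4 other libraries held at most 4 and 44. These RNAs moved with Rn45s, and their part in the ratios of mRNAs was not tested.

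Housekeeping lists lay lower, and their counts under vehicle are given further on. In the proteasome core, which degrades ubiquitin-tagged proteins, 0 of 28 were higher and 11 lower, with a median of -1.01 (-0.90 with genes at 0 reads at their bound). Psmb1 had 2 reads against 200 (0.162, 0.0195 to 0.595) and Psmd14 1 against 163 (0.0997, 0.00251 to 0.563). For oxidative phosphorylation 0 of 35 were higher and 7 lower, with a median of -1.01 (-0.45 at the bound). The cytochrome oxidase subunit Cox7b had 0 against 109, at least 2.24-fold lower by the floor of 3 reads. The complex I subunit Ndufa2 had 0 against 78, at least 1.60-fold lower by that floor.

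Ribosomal proteins had 1 of 31 higher and 5 lower (median -0.71; -0.44 at the bound), and these genes have many processed copies, so their reads are uncertain. Translation factors had 0 of 25 higher and 8 lower (median -0.59; -0.52 at the bound), among them the start-site factor Eif5 with 8 reads against 619 (0.210, 0.0903 to 0.416) and Eif3e with 0 against 184, at least 3.77-fold lower. In the unfolded protein list 1 of 18 was higher and 6 lower (median -1.20; -0.69 at the bound), with the chaperone Hsp90b1 at 27 against 1317 (0.333, 0.219 to 0.487). The peroxidase Prdx1 was lower, with 17 reads against 2454 (0.113, 0.0655 to 0.181), within an antioxidant and iron list of 1 higher and 4 lower of 16. The ferritin light chain Ftl1 was lower, with 140 against 5410 (0.420, 0.353 to 0.497), while the heavy chain Fth1 was not called, with 1623 against 21323 (1.24, 1.18 to 1.30).

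These lower calls moved with transcript length and base composition. Across 5 bins of genes by length, from the shortest (62 to 1664 bases) to the longest (4821 bases and more), the median log2 ratio under KLA went from -0.79 through -0.52, -0.36 and -0.18 to 0.12. Across 5 bins by GC content, from the lowest to the highest, it went from -0.85 through -0.44, -0.19 and -0.19 to -0.08. Genes called lower had a median GC content of 45.2% and genes called higher 51.6%, against 50.0% for all. The oxidative phosphorylation list has a median length of 647 bases, the ribosomal proteins 734, the proteasome 1255 and all genes 2912.

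After correction for length the oxidative phosphorylation median was -0.06, with 1 of 35 higher and 1 lower, the proteasome median -0.38, with 2 of 28 higher and 1 lower, and the ribosomal median 0.14, with 4 of 31 higher and 0 lower. The antiviral genes, with a median GC content of 47.6% and a median length of 2693 bases, had 35 higher calls of 40 with length, GC or both corrected. With length, GC or both corrected the calls of Psmb1, Psmd14, Cox7b, Ndufa2, Hsp90b1, Ftl1, Cd83, Cd36, Plin2, Fabp4 and Fcgr1 also ended in at least 1 of the 3 corrections, while those of Eif5, Eif3e and Prdx1 held in all 3. The part of length and GC content in these calls was not tested further.

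**Figure D4:**
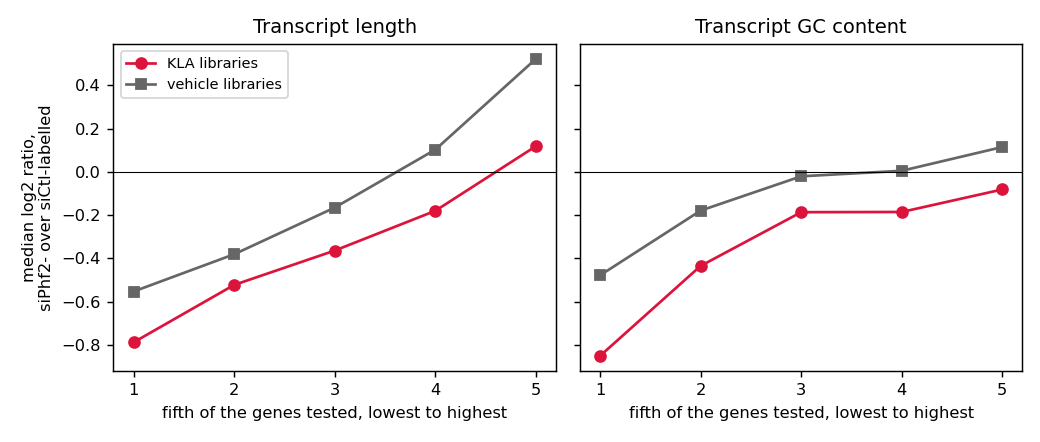
Points are the median log2 ratio (siPhf2-labelled over siCtl-labelled) of genes in each of 5 bins of transcript length (left) and GC content (right), for the KLA libraries (red circles) and the vehicle libraries (grey squares). Under KLA the median climbs from -0.79 in the shortest to 0.12 in the longest bin and from -0.85 in the bin lowest in GC to -0.08 in the highest.

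The libraries carried macrophage markers. Of the defining ones Emr1, the F4/80 antigen, had 58 reads against 808 (1.17, 0.878 to 1.52), Cd68 281 against 2589 (1.76, 1.55 to 2.00), Lyz2 138 against 2670 (0.840, 0.703 to 0.997) and Itgam 68 against 1261 (0.876, 0.676 to 1.12). Csf1r, the receptor for the growth factor of macrophages, was higher, with 78 against 560, or 837 against 370 RPM, a ratio of 2.26, as was the uptake receptor Mertk, with 37 against 184 (3.27, 2.23 to 4.67). The Fc receptor Fcgr1 was lower, with 5 against 194 (0.419, 0.134 to 0.994). In the whole macrophage list 7 of 29 were higher and 5 lower (median -0.39; 0.12 with genes at 0 reads at their bound), against 4 and 9 with the total without Rn45s. Among the higher were Apoe, the lipid carrier, with 344 against 1797 (3.11, 2.76 to 3.49) and Gpnmb with 3493 against 25472 (2.23, 2.15 to 2.31). The calls of Csf1r and Gpnmb ended with either total as the scaling. The scavenger receptor Cd36 was lower, with 64 against 5015 (0.207, 0.159 to 0.265).

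Lipid handling genes took both directions. Lrp1, the receptor for apoE and dying cells, had 914 reads against 2323 (6.39, 5.92 to 6.90). The droplet coat Plin2 had 38 against 1857 (0.333, 0.235 to 0.458) and the fatty acid carrier Fabp4 4 against 362 (0.180, 0.0487 to 0.464), within 3 higher and 5 lower of 19 (median -0.35 with and without genes at 0 reads at their bound). In sterol synthesis 5 of 17 were higher and 0 lower (median 0.09; 0.71 at the bound), against 2 and 2 with the total without Rn45s. The same list had 7 higher and 0 lower under vehicle, and also in the siSmyd5-labelled KLA library, which shares the control.

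Lysosomal genes had 3 of 36 higher and 7 lower, beside 7.83% and 7.27% of all genes, with a median of -0.34, as for all genes. With the total without Rn45s 0 were higher and 12 lower. Of all genes tested, those with 200 to 1000 control reads had a median of -0.06, and those from 1000 up 0.47. The saposin precursor Psap had 2373 reads against 14773, a ratio of 2.61 and the protease Ctsd 859 against 14052 (0.993, 0.926 to 1.06). Glycolysis and hypoxia genes had 3 of 24 higher and 4 lower, with the hexokinase Hk3 at 178 against 1053 (2.75, 2.33 to 3.22) and the pyruvate kinase Pkm at 15 against 703 (0.347, 0.193 to 0.576). Complement genes had 1 of 14 higher and 2 lower, beside the same shares of all genes.

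Markers of other cells were sparse. Of the lists for B cells (11 genes in the table), T and NK cells (14), eosinophils and mast cells (13) and dendritic cells (9), 0 genes reached the minimum of reads. Their summed levels were 10.7, 0, 10.7 and 42.9 RPM in the siPhf2-labelled and 27.7, 13.2, 38.3 and 18.5 in the siCtl-labelled KLA library. They rest on 1, 0, 1 and 4 reads in the former and 42, 20, 58 and 28 in the latter. Of 11 neutrophil genes 3 were measured. Csf3r was higher, with 29 reads against 65 (7.25, 4.51 to 11.4), while S100a8, with 0 against 18, and Mmp9, with 1 against 40, were not called. S100a9, Mpo and Elane had 0 reads in both. Of 20 stromal and mesothelial genes 14 were measured, 0 higher and 5 lower (median -0.92), with the collagen Col3a1 at 6 against 472 (0.207, 0.0754 to 0.453) and the fibronectin Fn1 at 246 against 2436 (1.64, 1.43 to 1.87). The same list had 1 higher and 4 lower under vehicle, and 0 higher and 5 lower in the siSmyd5-labelled KLA library, which shares the control. The summed level of the 20 genes was 5152 RPM in the siPhf2-labelled and 4748 in the siCtl-labelled KLA library. Of the 480 reads in the former, Fn1 gave 246 and Thbs1 135. In bulk RNA fewer cells of a type and less RNA per cell cannot be told apart.

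The vehicle libraries of the same siRNAs share no library with the KLA ones. There 867 genes (10.8%) were higher and 706 (8.83%) lower under the siPhf2 label, 19.7% together. Called higher under both agents were 277 genes, 44.2% of the KLA and 31.9% of the vehicle list, and called lower under both were 198 genes, 34.1% and 28.0%. Gpnmb, Apoe, Psap, Lrp1 and Csf1r were among the shared higher genes, with vehicle ratios of 2.37, 3.68, 2.95, 12.3 and 2.88. Il1b had 10 reads against 0 under vehicle (at least 33.1-fold higher, by a floor of 3 control reads) and Tnf 31 against 28 (interval of the ratio 6.39 to 19.0). Inflammatory cytokines had 2 of 20 higher and 2 lower there (median 0.65). In the proteasome core 0 of 28 were higher and 13 lower under vehicle (median -0.95). Oxidative phosphorylation had 1 of 35 higher and 7 lower, and ribosomal proteins 3 of 31 and 6. Translation factors had 0 of 25 higher and 6 lower, and the unfolded protein list 0 of 18 and 6.

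The antiviral list had other counts under vehicle. There 7 of its 40 genes were higher and 10 lower, against 30 and 0 under KLA. Its median under vehicle was -0.43, below the -0.10 of all genes. With its 7 genes at 0 reads at their bound it was 0.08. The median of all genes was not taken with such genes at their bound, so the side of the list under vehicle is not settled. Irf7 had 2 reads against 576 under vehicle (0.0345, 0.00417 to 0.125) and 51 against 536 under KLA. Class I presentation had a median of -0.86 under vehicle and 0.16 under KLA, with B2m at 0.313 (0.263 to 0.370) and H2-K1 at 0.244 (0.178 to 0.327) under vehicle. Of genes with large ratios under KLA, Nlrc5 had 34 reads against 66 under vehicle, Cmpk2 14 against 18 and Rsad2 23 against 71. Without Rn45s the vehicle libraries held 192421 (siPhf2-labelled) and 1350844 (siCtl-labelled) reads. Relative to those totals Nlrc5, Cmpk2 and Rsad2 stood above control without KLA as well. Called higher under KLA and lower under vehicle were 14 genes, among them Ccl5, Irf9, Usp18, Xaf1, Ifi35, Eif2ak2, Samhd1, Ier3 and Cdkn1a. They were 2.24% of the genes higher under KLA, against 8.83% of all genes lower under vehicle. Called lower under KLA and higher under vehicle were 8, among them Fabp4, the chromatin remodeller Atrx and the lipid phosphatase Inpp5d. These were 1.38% of the genes lower under KLA, against 10.8% of all genes higher under vehicle. The difference between the agents was not tested, as each rests on 1 pair of libraries.

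**Figure D5:**
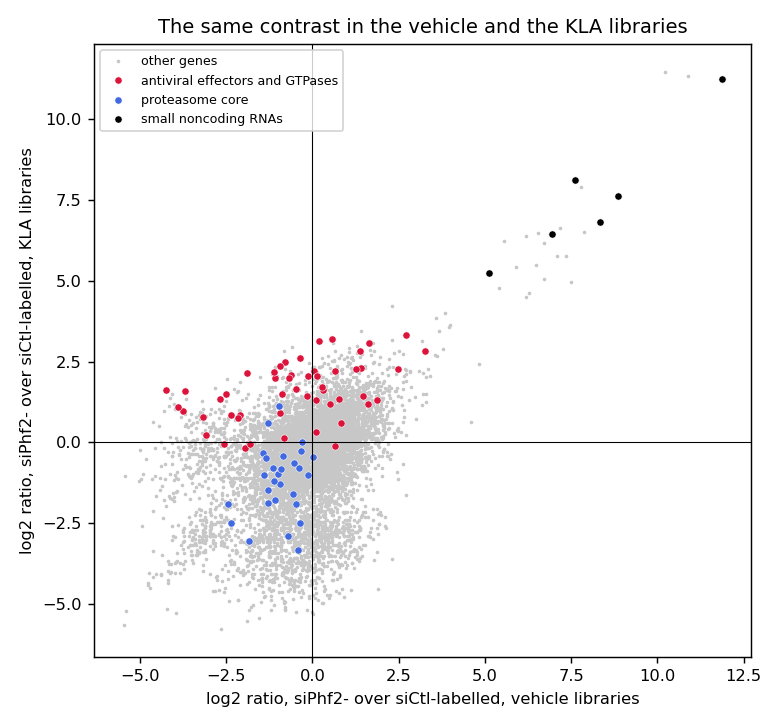
Each point is a gene, placed by its log2 ratio (siPhf2-labelled over siCtl-labelled) in the vehicle libraries (x) and the KLA libraries (y). Small noncoding RNAs (black) lie far up on both axes, proteasome genes (blue) mostly below 0 on both, and antiviral effectors and GTPases (red) mostly above 0 under KLA and on both sides of 0 under vehicle.

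The siSmyd5-labelled KLA library can be set beside, with the caution that it is read against the same siCtl-labelled library. In it 146 genes (1.83%) were higher and 301 (3.77%) lower, 5.59% together. Rsad2 stood at 1.53 of control there (1.44 to 1.64), Cmpk2 at 1.68 (1.51 to 1.88), Mx1 at 2.39 (2.16 to 2.65) and Nlrc5 at 0.910 (0.676 to 1.22), against 8.52, 10.2, 7.12 and 19.1 under the siPhf2 label. Il1b stood at 1.41 (1.28 to 1.56), Tnf at 0.688 (0.654 to 0.724), Ccl2 at 1.16 (1.08 to 1.24) and Ccl7 at 1.31 (1.12 to 1.54), against 5.34, 2.40, 0.208 and 0.0449. Proteasome genes had 1 of 28 higher and 0 lower there, and antiviral genes 4 of 40 higher and 0 lower, with ratios from 0.774 (Oas3) to 2.44 (Isg20).

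Depth set what could be seen. A gene with 0 reads in the siPhf2-labelled KLA library could be called lower only from 62 control reads up, which 4530 genes reached and 3464 did not. Below 62 control reads 173 of 3464 genes were higher and 0 lower; from 62 to 200 reads 236 and 350 of 2986; from 200 to 1000 reads 169 and 213 of 1380; and above 1000 reads 48 and 18 of 164. The median log2 ratio in these bins was, in that order, -0.57, -0.33, -0.06 and 0.47. Of the 581 lower calls, 149 had 0 reads. The lowest of these among protein-coding genes were the collagenase Mmp8, with 202 control reads (at least 4.14-fold lower), Eif3e, the RNA-binding protein Cnbp with 170 (at least 3.49-fold) and the nuclear exporter Xpo1 with 159 (at least 3.26-fold). Of the 1985 genes expected at 10 or more reads at the control level, 3 had 0 and 46 had at most 2.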

How the data were processed

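The deposited table holds, per the file headers, a signal for each RefSeq transcript: reads scaled by the authors to 10000000 tags of a library total. HOMER and mm9 appear in the submitters' processing notes, which give no role for either. The aligner and the use of strand are not given in those notes, so overlapping and antisense genes cannot be told apart. Per the labels' protocols poly(A) RNA was fragmented, tailed and size-selected, and no molecular identifiers were used.

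Whole reads were recovered by dividing by the scale: 100% of values were whole within 0.02. For the siCtl and siPhf2 columns this held only with the total printed for the other siRNA of the same agent (2.43% and 0.76% under their own totals for KLA). Of 29619 transcripts, 1 was kept for each of 23282 symbols, the one with the highest mean. Rn45s was left out and libraries were scaled by TMM (edgeR 4.0.16, R 4.3.3). DESeq2 1.42.0 gave size factors as an alternative. No count model was fitted, since each group has 1 library. Intervals are exact conditional Poisson (scipy 1.17.1, Python 3.11.15), cover counting error only, and the floor for a gene without reads is 3 reads. Calls needed a mean of at least 10 reads over 6 libraries, a log2 ratio of at least 1 in size, and a 95% interval without 1. For log2 ratios, reads were added in proportion to scaled library size, with a mean of 2 over the pair. Printed ratios have no reads added. The calling step was tested on simulated data.

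The rule for named genes took Phf2, Smyd5 and Rn45s, the 15 highest and 15 lowest protein-coding genes with at least 20 reads, the 8 highest and 4 lowest noncoding ones, in each list up to 5 called members and the 4 with the most reads, and 10 genes in each direction under both agents. Atrx, Bst2, Cd83, Cdkn1a, Csf1r, Eif2ak2, Emr1, Fcgr1, H2-M3, Ifi35, Inpp5d, Isg15, Isg20, Malat1, Oas3, Pdia3, Rtp4, Samhd1, Usp18 and Xaf1 were singled out after their values were seen. S100a9, Mpo and Elane were also named outside the rule. The members and the 38 gene lists were chosen with earlier results of these data known. Promoters came from RefSeq on GRCm38.p6, and 5865 of 7994 genes matched one. Length was corrected by the running median of the log2 ratio over 401 genes; that alternative and those of scaling, filter, reads added, interval and transcript are given with the closing section. Some results are not reported here.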

Additional observations from a re-analysis of the deposited data

Results flagged for a closer look

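The antiviral list lay on opposite sides of the median of all genes under the 2 agents. Its median log2 ratio, siPhf2-labelled over siCtl-labelled, was 1.96 above that of all genes under KLA and at -0.33 relative to it under vehicle. Under vehicle 7 of its genes had 0 reads, and with these at their bound its median was 0.08. The median of all genes, -0.10, was not taken with such genes at their bound, so the side of the list under vehicle is not settled. MHC class I presentation also lay on opposite sides, with 0.50 under KLA and -0.76 under vehicle. Called higher under KLA and lower under vehicle were 14 genes, 2.24% of those higher under KLA, against 8.83% of all genes lower under vehicle. Called lower under KLA and higher under vehicle were 8, 1.38% of those lower under KLA, against 10.8% of all genes higher under vehicle. None of these differences between agents was tested, since each agent has 1 pair of libraries.

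Rn45s, left out of the scaling, took 71.6% of the reads of the siPhf2-labelled KLA library, against 0.724% in the siCtl-labelled one.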

How the results depend on the processing

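The counts of calls depended on scaling and on length and GC content. The 626 higher genes were 313 with the total without Rn45s, 32 with the total with Rn45s, 380 with the protein-coding total and 391 with a mean of at least 50 reads. The 581 lower genes were 1341, 6730 and 1099 with those 3 totals, 287 with a 99% interval, 306 with length corrected, 218 with GC corrected and 186 with both. Of genes called under both agents, the 277 higher were 114 with the total without Rn45s, and the 198 lower were 675 with that total, 121 with length, 63 with GC and 42 with both corrected. Of the 40 antiviral genes, 30 were higher, 1 with the total with Rn45s and 0 once the names of control and Phf2 were swapped. The ribosomal protein median relative to all genes, -0.38, was 0.14 with length and 0.0205 with both corrected. Of 286 named genes, 196 of them called, 34 lost their call with the total without Rn45s, 23 with the protein-coding total, 15 with DESeq2 size factors, 41 with length, 29 with GC and 51 with both corrected, and 0 with 0.5 and 2 with 8 reads added. The GC alternatives were chosen after seeing the data. Under these alternatives no called gene of the 286 changed direction; single genes were not run with the total with Rn45s. No paired analysis was possible because each group has 1 library, and no library could be left out for the same reason. Depth limits the lower calls: genes under 62 control reads could not be called lower.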
